A study of Mus musculus with 12 samples.

Results

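The genes described are the proteins of the cytosolic ribosome, taken by name from the count table. Symbols made of Rpl or Rps, a number and at most 1 letter out of a, x, y and l were kept, together with Rpsa, Rplp0, Rplp1 and Rplp2. Pseudogene rows with names ending in -ps and the Rps6k kinases were left out. The rule gave 78 of 12752 genes, 46 of the large subunit and 32 of the small subunit. In GENCODE M21, 77 of them are protein-coding and 1, Rps4l, is annotated as a transcribed processed pseudogene. All 78 passed the filter on low counts.

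RNA was sequenced from whole tibialis anterior, a fast muscle of the lower leg, of male C57BL/6 mice. Every muscle received the adeno-associated vector AAV:TET at 8 weeks of age, together with an empty vector (EV) or with AAV:Dux (DUX), which carries the mouse transcription factor Dux. The empty vector went into 1 limb and the Dux vector into the opposite one. After 7 days the mice stayed on normal chow (EV, DUX) or were given chow with 600 mg/kg doxycycline (EV_DOX, DUX_DOX), the drug that acts on tetracycline-controlled vectors. Both 2 and 7 further days on the chow are named in the labels, without saying which one these muscles had, and separate animals within a group are not stated. Counts of Dux were not analysed here. The promoter that drives Dux is not given in the sources used here.

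Ribosomal proteins are made in step with ribosomal RNA and assembled with it in the nucleolus, and free copies are degraded. Most of their mRNAs begin with a cytosine and a run of pyrimidines, the terminal oligopyrimidine (TOP) tract, through which mTORC1 controls their translation. A few members have paralogs. In heart and skeletal muscle Rpl3l, a muscle form of the large subunit protein Rpl3, takes the place of Rpl3, which lies near the peptidyl transferase centre. Members such as Rpl5 and Rpl11 also bind Mdm2, the ubiquitin ligase of p53, when they are free of the ribosome.

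The sequence around the start of the gene is shown for some of the members named below, since it holds the TOP tract where there is one. RefSeq promoters on GRCm38.p6 matched 57 of the 78 members, and Rpl3 was not among them. Each line gives 10 bases before the annotated start and 20 from it on the gene's strand, 5′ to 3′, with CTTTC or CTTTT in capitals. Left out are Rpl5, Rpl31, Rpl26, Rpl10a and Rps16, which also rose on doxycycline chow and hold neither in these 30 bases. Rpl18 and Rpl7a, which rose too and hold CTTTC there, are also left out. The lines therefore do not give the share of members with these letters.
Rps27 (chr3:90213629-90213658, minus strand): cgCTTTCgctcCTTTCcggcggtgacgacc
Rplp2 (chr7:141447641-141447670, plus strand): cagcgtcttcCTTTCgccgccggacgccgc
Rpl27a (chr7:109519185-109519214, plus strand): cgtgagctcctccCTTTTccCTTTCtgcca
Rpl13a (chr7:45128726-45128755, minus strand): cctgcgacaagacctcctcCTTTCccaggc
Rps6 (chr4:86857348-86857377, minus strand): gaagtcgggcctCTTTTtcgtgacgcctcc
Rps12 (chr10:23787190-23787219, minus strand): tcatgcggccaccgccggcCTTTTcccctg
Rpl10 (chrX:74270806-74270835, plus strand): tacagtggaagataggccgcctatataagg
Rps27l (chr9:66946076-66946105, plus strand): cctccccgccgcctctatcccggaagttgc
Rpl3l (chr17:24727816-24727845, plus strand): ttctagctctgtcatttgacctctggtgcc

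Within 50 bases on either side of the start, CTTTC or CTTTT stood on the gene's strand in 36 of the 57 members (63.2%) and in 21.4% of 27025 promoters. On the other strand the share was 14.0% in the members and 20.9% in all promoters. The letters CGGAAG, searched over the whole 300 bases, stood on the gene's strand in 36.8% of the members and 9.74% of promoters, and on the other strand in 42.1% and 9.52%. A match describes the letters only.

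Library totals ranged from 11880593 to 13811999 counts. Levels are given as CPM, the counts relative to the library total after scaling by TMM, a factor per library that centres most genes. All 12 fast fibre markers were measured, none at 0, and their summed level ran from 178780 to 195593 CPM in EV_DOX and from 148370 to 166546 CPM in DUX_DOX. The 20 macrophage markers summed to 174 to 255 CPM in EV, 170.3 to 233 in EV_DOX, 248 to 273 in DUX and 385 to 556 in DUX_DOX, with none at 0. In DUX_DOX against EV_DOX 18 of these 20 rose (adjusted p under 0.05 in the edgeR test used below), against 14.9% of all genes. The 7 satellite cell markers summed to 2229 to 2659 CPM in EV_DOX and 3020 to 3691 in DUX_DOX, with 3 higher and 1 lower. Their log2 fold changes were mixed, with 3 above 0, 4 below 0 and a median of -0.34. The higher sum thus does not describe the list as a whole. The 9 endothelial markers summed to 586 to 626 CPM in EV_DOX and 536 to 549 in DUX_DOX, with 0 higher and 1 lower. The sums of the other marker lists overlapped between these groups. The part of these cells in the ribosomal protein values below was not tested, and in whole muscle a change in the number of cells cannot be told apart from a change in RNA per cell.

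Levels within the family spanned a wide range. Per kilobase of exon, the median member stood at 90.4 CPM over the 12 libraries, with quartiles of 52.2 and 138 CPM. The stalk protein Rplp1 was highest at 463 CPM per kilobase, followed by Rps29 of the small subunit at 316 and the stalk base Rplp0 at 277. Rps4l stood lowest at 2.53, Rpl13a at 4.01 and Rps15a at 14.1 CPM per kilobase, the last over 5395 annotated exon bases. Many members have processed pseudogenes. The median member shared 34.0% of its 50-base words with transcripts of other genes, and 19 members shared more than 50%. Whether reads that fit several places were counted is not given in the sources used here, so single levels, above all low ones such as Rpl13a, are uncertain.

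The first comparison asked what differed between Dux and empty vector muscle on doxycycline chow. Of the 78 members, 14 rose in DUX_DOX against EV_DOX and 0 fell (edgeR quasi-likelihood test, Benjamini-Hochberg adjusted p under 0.05), while 32 had an unadjusted p under 0.05. This is 17.9% of the members. Among all 12751 genes tested 25.3% were called, 14.9% as higher and 10.3% as lower. The share of members called was thus below that of all genes, and the share called higher was near the 14.9%. The members lay mostly on one side: 76 of 78 log2 fold changes were above 0, with a median of 0.23, against a median of -0.01 over all genes. Both subunits showed it, with 10 of 46 genes called and a median of 0.23 in the large subunit, and 4 of 32 and 0.22 in the small subunit. The 3 DUX_DOX libraries lay above all 3 EV_DOX libraries for 19 members, 24.4%, against a background of 21.4%, and below them for 0, against 17.3%.

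**Figure D1:**
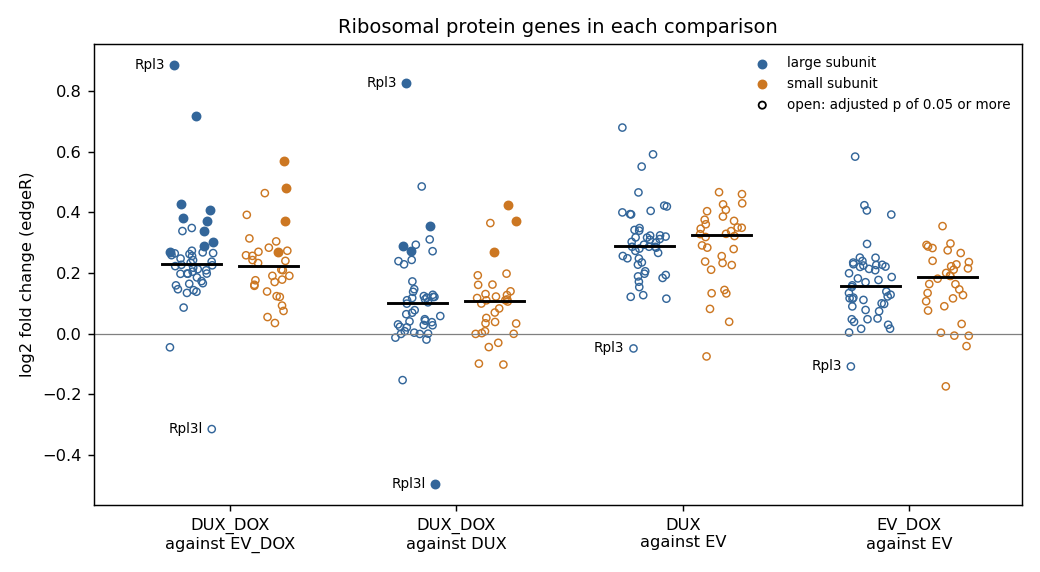
Log2 fold change (y axis) of each of the 78 genes in the 4 comparisons, split into large and small subunit. Filled points passed an adjusted p of 0.05, bars are medians. Rpl3 stands at the top and Rpl3l at the bottom of both comparisons of DUX_DOX, while no gene passed in the comparisons of DUX or EV_DOX with EV.

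Rpl3 (ENSMUSG00000060036, chr15:80077791-80091868, minus strand, GRCm38) stood furthest from its family. Its level was 52.6, 49.4 and 60.9 CPM in the DUX_DOX libraries. In EV_DOX it was 32.3, 29.2 and 26.6 CPM, in DUX 29.6, 30.5 and 31.6 CPM, and in EV 32.5, 30.2 and 32.2 CPM. Every DUX_DOX library was above every other library, and the 9 others lay between 26.6 and 32.5 CPM. The rise was 0.89 log2 (SE 0.09, 1.85-fold, adjusted p = 1.27e-05) against EV_DOX and 0.83 (SE 0.09, 1.77-fold, adjusted p = 2.46e-05) against DUX. It passed in 25 of 25 alternative analyses of each comparison.

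Rpl3l (ENSMUSG00000002500, chr17:24727820-24736143, plus strand) showed the opposite order. It measured 381, 317 and 361 CPM in DUX_DOX and 512, 501 and 481 CPM in DUX, with no overlap. In EV_DOX it was 363, 446 and 508 CPM and in EV 405, 468 and 357 CPM, and both of these groups overlapped with DUX_DOX. Rpl3l fell by 0.50 log2 against DUX (SE 0.13, 0.708-fold, adjusted p = 0.00922), a call kept in 25 of 25 alternatives. Against EV_DOX its log2 fold change was -0.31 (SE 0.13, adjusted p = 0.0824, range over the alternatives 0.0150 to 0.304), which did not pass. This fall passed in 3 of 25 alternatives, with log2 values from -0.44 to -0.20. The largest came from leaving out EV_DOX 1, the EV_DOX library with the least Rpl3l, which by itself enlarges the fall (adjusted p = 0.0150).

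The count of Rpl3 per count of Rpl3l puts both together within a library. It was 0.138, 0.156 and 0.169 in DUX_DOX, 0.0890, 0.0654 and 0.0524 in EV_DOX, 0.0579, 0.0609 and 0.0658 in DUX, and 0.0803, 0.0646 and 0.0902 in EV. Every DUX_DOX library was above all the others. By the means of the log2 ratios, DUX_DOX was 2.28-fold above EV_DOX and 2.50-fold above DUX. A two-sided exact permutation test gave p = 0.1 in each, the smallest that 3 against 3 libraries allow. Per kilobase of exon, Rpl3 made up 15.4% of the pair's counts in DUX_DOX, 7.51% in EV_DOX, 6.78% in DUX and 8.47% in EV. Rpl3l thus had more counts per kilobase in every group. The 2 genes shared 0 words of 50 bases with each other. Rpl3l shared 0% of its words with any other gene, and Rpl3 shared 67.1% with 26 others. If reads that fit several places were left out, Rpl3 would be undercounted relative to Rpl3l. Its share of the pair is therefore uncertain.

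**Figure D2:**
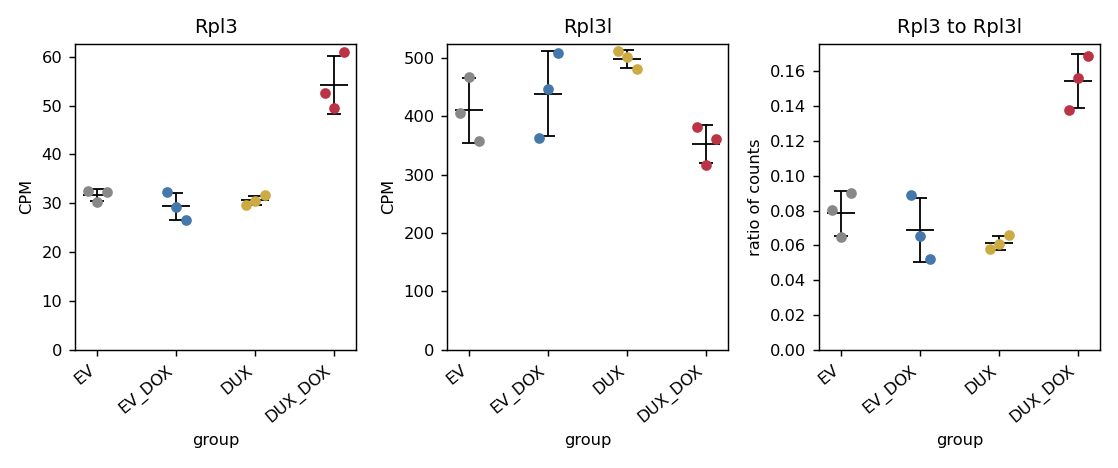
CPM of Rpl3 and of Rpl3l and the ratio of their counts (y axes, from 0) in the 4 groups. Points are libraries, bars the mean and SD of 3. The DUX_DOX libraries have Rpl3 levels of 49.4 to 60.9 CPM, above all others, and ratios of 0.138 to 0.169.

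The other members called on doxycycline chow were spread over the ribosome. Rps20, a protein of the head of the small subunit, measured 127, 117 and 150 CPM in DUX_DOX and 80.2, 89.8 and 95.9 in EV_DOX (0.57 log2, SE 0.12, adjusted p = 0.00286). Rps12, also of the small subunit head, measured 145, 134 and 158 CPM against 83.8, 118 and 111 (0.48, SE 0.13, adjusted p = 0.0127). Rpl5, which carries 5S rRNA into the large subunit, measured 131, 124 and 133 CPM against 86.8, 101 and 100 (0.43, SE 0.10, adjusted p = 0.00529). For these 3 genes the groups did not overlap, and the lowest EV_DOX library was EV_DOX 1. Rpl10, which joins late as the large subunit matures, measured 145, 127 and 148 CPM against 92.3, 117 and 113 (0.38, SE 0.11, adjusted p = 0.0172). Rps6, the substrate of S6 kinase, measured 97.3, 85.4 and 102 CPM against 62.6, 81.2 and 76.8 (0.37, SE 0.11, adjusted p = 0.0206). Rpl13a, a large subunit protein also known from translational silencing in inflammation, measured 6.25, 5.01 and 7.42 CPM against 4.31, 3.80 and 3.21 (0.72, SE 0.18, adjusted p = 0.0104). Rpl13a thus showed the second largest fold change at a level far below that of the others. Rpl17 (0.41, adjusted p = 0.0208) and Rpl31 (0.37, adjusted p = 0.0252), both of the large subunit, rose as well. The remaining 5 called genes, named here after their values were seen, were Rpl26 at 0.34, Rpl18 at 0.30, Rpl10a at 0.29, Rpl7a at 0.27 and Rps16 at 0.27.

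**Figure D3:**
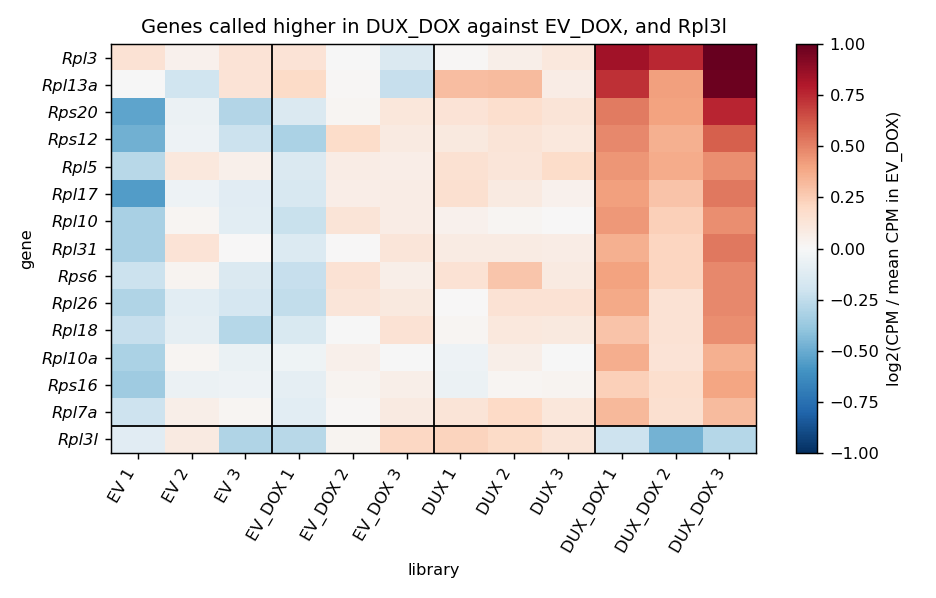
Log2 ratio of each library's CPM to the mean CPM in EV_DOX (colour, from -1 to 1) for the genes called higher in DUX_DOX against EV_DOX and, in the last row, Rpl3l. Columns are the 12 libraries. In most rows DUX_DOX 2 is the palest of the DUX_DOX libraries and EV 1 the bluest of all.

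Members with other known roles did not pass in the main edgeR test. For the stalk the log2 values were 0.26 for Rplp0 (SE 0.10, adjusted p = 0.0703), 0.24 for Rplp1 (SE 0.11, adjusted p = 0.139) and 0.20 for Rplp2 (SE 0.14, adjusted p = 0.305). Rpl11, the partner of Rpl5 in binding Mdm2, stood at 0.26 (SE 0.11, adjusted p = 0.107). Rpsa, the laminin receptor protein of the small subunit, stood at 0.23 (adjusted p = 0.169), and Rps27a, made as a fusion with ubiquitin, at 0.16 (adjusted p = 0.390). Rpl22 was close to 0 at -0.05 (95% interval -0.29 to 0.20). Rpl39, Rps4x and Rps4l stood at 0.20, 0.14 and 0.46 (adjusted p of 0.332, 0.309 and 0.120), and Rpl39l and Rpl10l were not analysed here. Over the 25 alternatives Rpl11 passed in 4, Rplp0 in 3, and Rplp1 and Rpsa in 1 each. Rplp2, Rps27a, Rpl22, Rpl39, Rps4x and Rps4l passed in 0.

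A second paralog pair, Rps27 and Rps27l, differs near the start as printed above, where Rps27 holds CTTTC at 2 places and Rps27l at none. Rps27 measured 113, 91.0 and 113 CPM in DUX_DOX and 73.8, 87.0 and 95.9 in EV_DOX (0.30 log2, SE 0.13, adjusted p = 0.104). Rps27l stood at 0.03 (95% interval -0.15 to 0.22). The count ratio of Rps27 to Rps27l was 3.22 ± 0.0276 (SD, n = 3) in DUX_DOX, 2.67 ± 0.225 in EV_DOX, 2.82 ± 0.207 in DUX and 2.11 ± 0.456 in EV. DUX_DOX lay above EV_DOX in every library (two-sided exact permutation p = 0.1, the smallest possible), by 1.21-fold.

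The number of called genes depended on single libraries. Without DUX_DOX 3 it was 3 (Rpl3, Rps20 and Rpl5), with 16.5% of all genes called. It was 8 without DUX_DOX 1 (23.4% of all genes), 23 without DUX_DOX 2 (19.7%) and 9 without EV_DOX 2 (22.2%). Without EV_DOX 1 it was 6, of which 5 were higher and 1, Rpl3l, lower, with 3184 of all genes called, 14.6% as higher. The median log2 fold change was 0.13 without EV_DOX 1.

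Genes were also grouped by features of the annotation, a choice made after their values were seen. A snoRNA gene lies inside 29 members on the same strand, and 9 of these were called higher, with a median log2 fold change of 0.26. Of the 49 without one 5 were called, with a median of 0.21. Rpl3 holds 2, Rps20 1, Rps12 3, Rpl5 3, Rpl17 3 and Rpl13a 4 snoRNA genes. An annotated transcript subject to nonsense-mediated decay exists for 18 members, of which 4 were called (median 0.25), and 10 of the other 60 were called (median 0.22). With CTTTC or CTTTT near the start, 9 of 36 members were called (median 0.24), and without them 2 of 21 (median 0.24). None of these splits was tested.

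The genes that build and use ribosomes were read from fixed lists, whose counts stand against the 14.9% of all genes that rose and the 10.3% that fell. In DUX_DOX against EV_DOX 21 of 65 ribosome biogenesis genes (32.3%) rose and 1 fell, with a median of 0.24 log2. Among them the nucleolar helicase Ddx21 rose by 0.49 (SE 0.08, adjusted p = 0.000675) and the helicase Ddx56 by 0.53 (adjusted p = 0.00113). Of 14 RNA polymerase I genes 3 (21.4%) rose and 0 fell, with Taf1d, a subunit of the selectivity factor SL1, at 1.17 (SE 0.13, adjusted p = 1.36e-05) and Polr1c at 0.42 (adjusted p = 0.0177). Of 33 initiation factors 6 (18.2%) rose, a share near the background, including the helicase Eif4a1 at 0.73 (SE 0.08, adjusted p = 9.91e-06) and Eif1a at 0.72 (adjusted p = 0.00171). Elongation factors and other TOP mRNAs had 3 of 15 higher and 1 lower, with the poly(A)-binding protein Pabpc1 at 0.60 (adjusted p = 0.000369) and Hnrnpa1 at 0.23 (adjusted p = 0.0283). Of 11 chaperones of ribosomal proteins only Ipo5 passed at 0.28 (adjusted p = 0.0339), and Hgh1 stood at 0.54 (adjusted p = 0.124).

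In the mTORC1 and TOP control list 3 of 19 rose (15.8%, near the 14.9% of all genes), among them the stress-induced mTORC1 inhibitor Sesn2 at 1.41 (SE 0.20, adjusted p = 0.000132) and the transcription factor Myc at 1.18 (SE 0.21, adjusted p = 0.00107). Of 10 ribosome rescue genes 0 rose and 2 fell, which were Gtpbp2 by 0.29 and Ltn1, the ligase of stalled ribosomes, by 0.27. In the p53 arm Cdkn1a rose by 0.94, Trp53 by 0.34 and Mdm2 by 0.30, and Mdm4 fell by 0.46. Among ribosomal proteins outside the name rule Rpl7l1 rose by 0.40, Rpl36al by 0.42 and Rpl22l1 by 0.39, and Fau stood at 0.24 (adjusted p = 0.183). The 76 mitochondrial ribosomal proteins lay on the other side from the cytosolic ones, with a median of -0.11 and 60 values below 0. Of them 0 were called higher and 3 (3.95%) lower, under the 10.3% of all genes called lower. Mrpl18 fell by 0.42 and Mrps9 by 0.29. The 79 oxidative phosphorylation subunits had 0 higher, 5 lower (6.33%, also under 10.3%) and a median of -0.17, with Ndufs1 and Sdha the lowest in p.

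The second comparison set Dux muscle on doxycycline chow against Dux muscle on normal chow, and shares the DUX_DOX libraries with the first. Here 7 members rose and 1 fell, with 14 at an unadjusted p under 0.05, against 29.6% of all genes called, 16.5% higher and 13.1% lower. The median was 0.10 log2, against 0.01 over all genes, and 65 of 78 values were above 0. Beside Rpl3, the genes that rose were Rps20 by 0.42 (adjusted p = 0.0142), Rps12 by 0.37 (adjusted p = 0.0387), Rpl10 by 0.36 (adjusted p = 0.0210), Rpl10a by 0.29, Rpl5 by 0.27 and Rps16 by 0.27. In the DUX libraries Rps20 measured 97.3, 99.4 and 97.1 CPM, Rps12 112, 114 and 112, and Rpl10 111, 109 and 108, each below every DUX_DOX library. The DUX_DOX group lay above DUX for 11 members, against 26.0% of all genes, and below it for 1, Rpl3l, against 22.6%. Without DUX 1, DUX 2, DUX 3 or DUX_DOX 1 in turn 3 genes were called, with 21.3%, 21.7%, 22.6% and 27.6% of all genes called. Without EV_DOX 2 there were 5 (28.7% of all genes), and without DUX_DOX 3 there were 2, Rpl3 and Rpl3l (21.3%). Mitochondrial ribosomal proteins fell in 24 of 76 cases (median -0.25) and oxidative phosphorylation subunits in 37 of 79 (median -0.35).

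On normal chow the Dux vector was set against the empty vector. In edgeR 0 members passed, 0.0% of all genes being called, although 53 of 78 members and 2012 of all genes had an unadjusted p under 0.05. The DESeq2 Wald test called 7 members higher, with 0.902% of all genes called and 0.400% higher, and limma-voom called 0. The members lay nearly all on one side: 76 of 78 values were above 0, with a median of 0.30 log2 against 0.00 over all genes, and the 3 DUX libraries lay above the 3 EV libraries for 55 members, against a background of 11.3%, and below them for 0, against 11.6%. Other lists also lay to one side, with 0 genes called. For the mitochondrial ribosomal proteins 73 of 76 values were above 0, with a median of 0.24, and for 43 of them the DUX libraries lay above the EV libraries. For the oxidative phosphorylation subunits these were 79 of 79, 0.31 and 52. The 5 red blood cell markers summed to 130.3 to 179 CPM in EV and 224 to 537 in DUX, with a median of 1.12 log2, and did not overlap. The 9 tenocyte markers summed to 187 to 1089 CPM in EV and 108 to 185 in DUX, with a median of -2.15, and for 4 of them DUX lay below EV. None of these markers was at 0, and their part in the ribosomal protein values was not tested. The smallest p-values belonged to Rpl27a (0.68 log2, SE 0.14, adjusted p = 0.179), Rplp2 (0.59, SE 0.14, adjusted p = 0.188) and Rpl36 (0.55, SE 0.13, adjusted p = 0.192). Rpl27a measured 45.5, 48.2 and 45.4 CPM in DUX and 23.3, 35.0 and 28.5 in EV. Rpl3 stood at -0.05 (95% interval -0.24 to 0.14), and Rpl3l stood at 0.28 (adjusted p = 0.301). Without EV 2 8 members were called higher, with 0.925% of all genes called and 0.533% higher.

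Doxycycline chow alone, EV_DOX against EV, gave 0 called members in edgeR, DESeq2 and limma-voom, 13 with an unadjusted p under 0.05 and a median of 0.17 log2. Over all genes 0.0392% were called. Rpl27a was again the member with the smallest p at 0.58 (SE 0.14, adjusted p = 0.385), followed by Rpl13 at 0.39 (adjusted p = 0.457) and Rplp2 at 0.42 (adjusted p = 0.494). EV_DOX lay above EV for 2 members, against 5.69% of all genes, and below it for 0, against 6.45%. Rpl3 and Rpl3l stood at -0.11 and 0.10 (adjusted p of 0.794 and 0.872).

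Ribosomal protein mRNAs are short, and transcript length moved with the values in these 2 comparisons. The members had a median length of 776 bases, against 2712 over all genes, and 72 of 78 were in the quintile of genes with the shortest transcripts (67 to 1516 bases). In DUX against EV the median log2 fold change of that quintile was 0.15 and of the longest quintile -0.15, and in EV_DOX against EV the values were 0.10 and -0.11. In DUX_DOX against EV_DOX they were -0.02 and -0.05, and in DUX_DOX against DUX -0.04 and 0.01. With an offset for transcript length in each library the median of the members was 0.13 in DUX against EV and 0.06 in EV_DOX against EV, below the values without it, and 0.21 in DUX_DOX against EV_DOX and 0.14 in DUX_DOX against DUX. The offset also lowered the median SE of the members from 0.11 to 0.08 in DUX_DOX against EV_DOX, where 31 members then rose and 1, Rpl3l, fell, the 14 genes called without it among them. Of all genes 28.1% were then called, 15.5% as higher. Whether length accounts for the remaining shift was not tested.

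**Figure D4:**
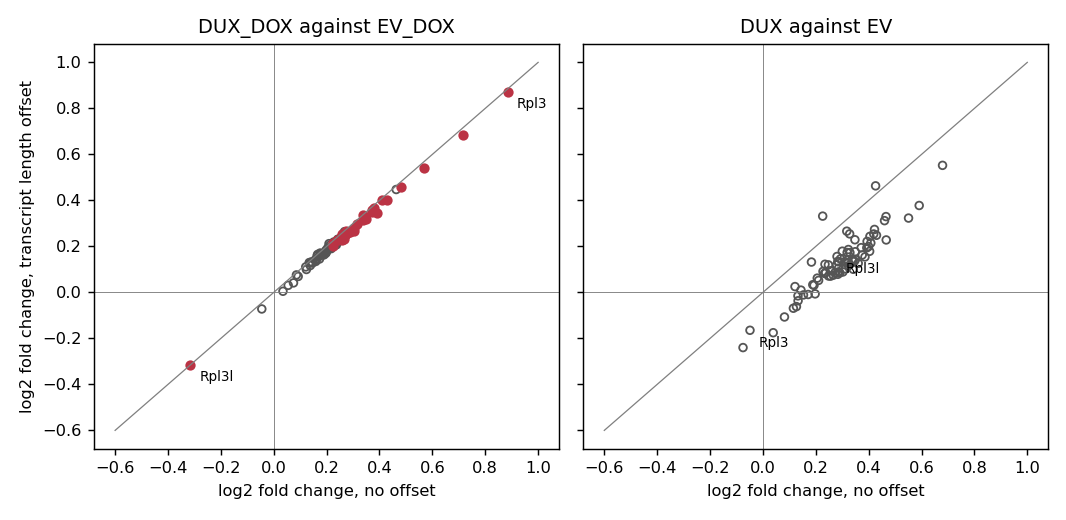
Log2 fold change of each of the 78 genes without (x axis) and with (y axis) the transcript length offset, with the diagonal of equal values. Filled points passed an adjusted p of 0.05 with the offset. In DUX_DOX against EV_DOX the points stay near the diagonal, and in DUX against EV nearly all lie below it.

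Summed over the family, ribosomal protein genes took 0.657%, 0.780% and 0.699% of the counts in EV, 0.739%, 0.848% and 0.838% in EV_DOX, 0.805%, 0.857% and 0.882% in DUX, and 0.995%, 0.934% and 1.08% in DUX_DOX. The DUX_DOX libraries lay above all the others on this scale, which has no further scaling. On the TMM scale the groups overlapped: DUX_DOX 2 had 8309 CPM, below all 3 DUX libraries (8792, 9078 and 8844 CPM) and below EV_DOX 2 and EV_DOX 3 (8453 and 8791 CPM). The median member of EV 1 was 0.38 log2 below the mean of the 12 libraries, and the shortest quintile of genes was 0.13 below it in that library. In DUX_DOX 3 the values were 0.30 and 0.09 above the mean.

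**Figure D5:**
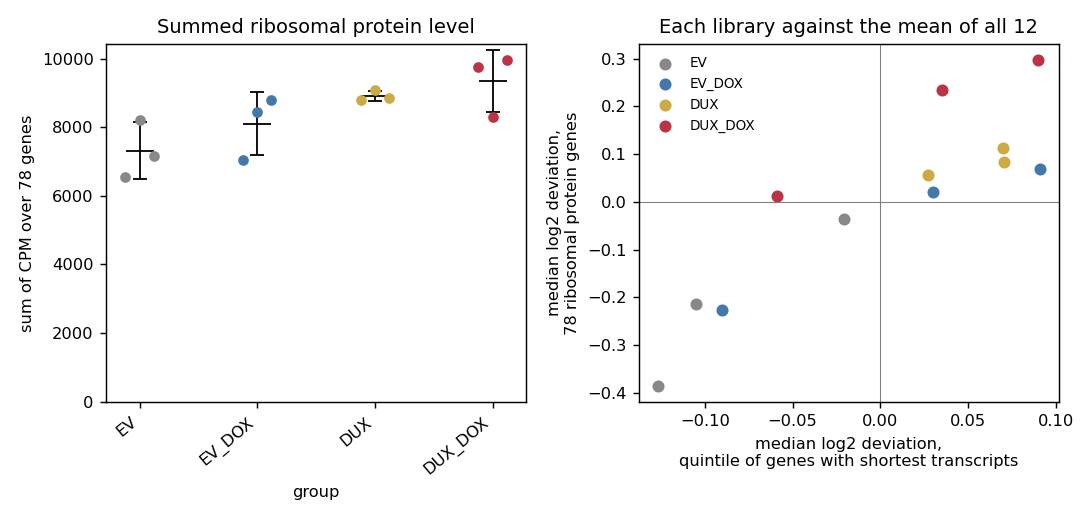
Left, summed CPM of the 78 genes by library with the mean and SD of 3 (y axis from 0). Right, each library's median log2 deviation from the mean of the 12 libraries for the 78 genes (y axis) and for the quintile of genes with the shortest transcripts (x axis). Of the 9 libraries other than DUX_DOX, 4 lie below 0 on both axes and 5 above 0 on both.

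The interaction of vector and chow asks whether the Dux vector's difference was another on doxycycline chow than on normal chow. Rpl3 was called higher (0.93 log2, SE 0.13, adjusted p = 0.000582) and Rpl3l lower (-0.60, SE 0.18, adjusted p = 0.0478), with 10.4% of all genes called, 6.97% higher and 3.43% lower. The call of Rpl3 held in 24 of 24 alternatives and that of Rpl3l in 11 of 24, where its adjusted p ran from 0.00837 to 0.120. The members had a median of -0.08, which turned to 0.07 with the length offset.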

How the data were processed

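The deposited values are raw counts of reads per gene. The submitters' processing notes name bcl2fastq 2.17.1.14, STAR, featureCounts and the build GRCm38. Libraries were made by poly-A selection from 200 ng of RNA, per the labels' protocols. Neither the annotation nor the handling of reads that fit several places is stated there.

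The 4 groups of 3 libraries were fitted together with the quasi-likelihood test of edgeR 4.0.16 (R 4.3.3), with TMM factors, the default filter on low counts and 1 mean per group. P-values were two-sided and adjusted by Benjamini-Hochberg over 12751 genes, with a threshold of 0.05. They measure the spread between libraries, which may be technical. Pairs of libraries within a group differed by a chi-square per degree of freedom of 4.81 to 25.5. The median biological coefficient of variation was 10.6%.

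Alternatives were other scalings, filters and samples, DESeq2 1.42.0, limma-voom (limma 3.58.1), offsets per library from a lowess on transcript length or GC content (GENCODE M21), a replicate block, and leaving out each library. The fit was tested on simulated data, with 200 genes changed in DUX_DOX and the others left unchanged. In DUX_DOX against EV_DOX it called 0.0% of 67 genes changed 1.2-fold and 50.7% of 67 changed 1.5-fold. Of 66 genes changed 2-fold it called 90.9%, and 7 of 12749 genes were false calls. In the data 3224 genes were called in this comparison, so the Benjamini-Hochberg adjustment was stricter in the simulation than in the data. The shares recovered therefore do not give the power of the real comparison.

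The members and lists were chosen with earlier results of these data known. Named were paralogs and genes of known role in the first comparison, Rpl3 and Rpl3l in each, the called genes with the largest changes, the 3 smallest p-values where none was called, the 3 highest and lowest levels, and the 2 smallest p-values of each list. The rule had taken the role genes in every comparison, and they are given in the first only for length.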

Additional observations from a re-analysis of the deposited data

Results flagged for a closer look

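For 2 genes the difference between the Dux and the empty vector was not the same on the 2 chows, by the interaction term of the edgeR fit. Rpl3 had an interaction of 0.93 log2 (adjusted p = 0.000582), with all 3 DUX_DOX libraries above the 9 others. Rpl3l had an interaction of -0.60 log2 (adjusted p = 0.0478), with the 3 DUX_DOX libraries below the 3 DUX libraries and overlapping with EV_DOX. The call of Rpl3l held in 11 of 24 alternatives and was lost with the replicate block (adjusted p = 0.0764), where that of Rpl3 held. The vectors went into opposite limbs, but the labels do not tie libraries to animals, so the limbs of an animal could not be paired.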

How the results depend on the processing

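The number of members called in DUX_DOX against EV_DOX was 14 and became 8 with only the groups compared (18.7% of all genes called), 28 with the replicate block and length offset (26.1%), 32 with the length offset (28.1%) and 49 with total counts only (24.4%, with 19.1% higher), and 3 to 23 when 1 library was left out. In DUX_DOX against DUX it was 8 and became 16 with the replicate block and length offset (31.0% of all genes), 18 with the length offset (32.3%), 37 with total counts only (33.7%, with 27.7% higher), and 2 to 12 when 1 library was left out. In DUX against EV it was 0, with 7 by the DESeq2 Wald test and 0 to 8 with 1 library left out. For the interaction it was 2, with 1 under the GC offset, 1 with total counts only, 1 with the replicate block, 4 with the length offset and 1 to 4 with 1 library left out. The median interaction of -0.08 changed sign to 0.073 with the length offset, 0.073 with the replicate block and length offset and 0.061 with total counts only, and ran from -0.16 to 0.016 with 1 library left out.

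Values near 0 changed sign too: Rpl22 in DUX_DOX against EV_DOX was 0.065 with total counts only and -0.16 to 0.056 with 1 library left out, Rps27l there was -0.026 to 0.13, and Rpl3l in EV_DOX against EV was -0.000068 with the length offset and -0.020 to 0.22. The share of counts in members, without the 10 genes with the most counts, was 1.02% in EV, 1.15% in EV_DOX, 1.23% in DUX and 1.38% in DUX_DOX, and the TMM-scaled share in DUX was 0.890%. The cause of these changes was not tested.

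With the replicate block alone 14 members were called in DUX_DOX against EV_DOX. Libraries of the same number correlated at -0.42 to 0.20, and 3 of 12 correlated best with their own number, so the number was not taken as a pairing. The median SE of a member, 0.11 log2, limits what 3 libraries a group can show for single genes near the family's median of 0.23.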
